A study of Mus musculus with 6 samples.

Results

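Complement is the blood and tissue defence system in which C3, the central component, is cleaved and deposited on target surfaces. The transcripts examined here are 8 complement genes of tumour cells, out of 28063 genes with a row of counts: C3, the alternative pathway protease gene Cfb, the classical pathway protease genes C1ra and C1s1, the secreted inhibitor gene Serping1, and the membrane regulator genes Cd55, Cd59a and Cd46. They were taken from the count table by gene symbol, and had been selected on complement function with results of these 6 libraries, the fold changes of counts between groups, already in view. The fold changes and p-values below therefore describe these 8 genes and are not independent evidence about them. The libraries came from E0771, a mouse mammary carcinoma cell line, in 3 groups of 2 libraries each. Malt1_PD cells expressed a mutant Malt1 that the labels call PD without spelling it out, Malt1_WT cells expressed wild-type Malt1, and Vector cells carried a control vector. Malt1 encodes a scaffold and protease of NF-kB signalling. All 3 groups had been kept with activated CD8 T cells for 12 hours at an effector-to-target ratio of 3, then washed, detached, seeded again and lysed 6 hours later, and no group without T cells was analysed here. The labels do not say whether a group's 2 libraries are separate cultures, so the p-values reflect the variation among these libraries alone, and that may be technical. Each form was studied in its own cell population, and an effect of the form and any further difference of that population cannot be told apart.

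Activation of C3 can begin through C1, a complex of the recognition protein C1q with the proteases C1r and C1s, or through the alternative pathway, in which factor B joins C3b to form a C3-cleaving enzyme. Most circulating C3 is made in the liver, but epithelial, stromal and tumour cells also make it, and C3 and factor B transcripts are known to be induced by inflammatory cytokines. Host cells restrain the cascade with C1 inhibitor, encoded by Serping1, with CD55 and CD46, which dismantle or help to inactivate C3-cleaving enzymes, and with CD59, which blocks the membrane attack complex. In rodents, Crry, encoded by Cr1l, is a widely expressed regulator of C3 deposition.

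The upstream sequences of C3 and C1s1 are shown because both genes were abundant, while C3 separated from Vector in every library and C1s1 did not. Each is the 250 bases that end just before the RefSeq transcript start, on the gene's own strand in build GRCm38.p6, at chr17:57228137-57228386 for C3 and chr6:124542360-124542609 for C1s1, both on the minus strand. Of the 8 genes, 6 had an entry among the RefSeq promoter sequences. Capitals mark matches, on either strand, to 4 motifs: GGG and CC with any 5 bases between them (NF-kB), TTGC and AA with any 2 bases between them (C/EBP), TTC and GAA with any 3 bases between them (the GAS element of STAT factors), and GAAA repeated after any 2 bases (ISRE, the interferon-stimulated response element).
C3: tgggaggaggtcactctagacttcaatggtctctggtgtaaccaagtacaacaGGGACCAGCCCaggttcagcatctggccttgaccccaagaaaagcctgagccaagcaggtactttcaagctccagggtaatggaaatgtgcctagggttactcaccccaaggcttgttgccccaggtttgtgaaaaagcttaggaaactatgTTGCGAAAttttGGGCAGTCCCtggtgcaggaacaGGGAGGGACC
C1s1: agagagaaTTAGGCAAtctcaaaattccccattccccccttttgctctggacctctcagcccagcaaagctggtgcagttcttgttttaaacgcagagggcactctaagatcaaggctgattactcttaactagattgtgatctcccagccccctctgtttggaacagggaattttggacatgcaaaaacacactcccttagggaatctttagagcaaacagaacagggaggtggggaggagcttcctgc
The C3 window held 4 NF-kB matches, which began 197, 196, 33 and 10 bases before the start, the first 2 of them overlapping, and 1 C/EBP match that began 45 bases before it. The C1s1 window held 1 C/EBP match, 242 bases before the start, and 0 NF-kB matches. Neither window held a GAS or ISRE match. RefSeq also gives C1s1 another start, whose window, not printed, held 1 NF-kB match that began 35 bases before it. Cd55, which had almost no counts, held 4 NF-kB matches as C3 did, Cd59a and Cd46 held 1 each, and C1ra held 0. Over 32851 RefSeq windows of the same 250 bases, 45.8% held the NF-kB letters, 9.56% the C/EBP letters, 7.02% the GAS letters and 2.98% the ISRE letters. These are shares of windows with at least 1 match, so they give no comparison for a count of 4. A match describes the letters and not a bound site.

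The libraries held 14045390 to 19962014 counts. Malt1 itself stood at 106 and 95.7 CPM (counts scaled to a common library total with TMM factors, edgeR's library-size correction) in Malt1_PD and 67.2 and 82.1 CPM in Malt1_WT, against 23.8 and 31.3 CPM in Vector, in the direction of the labels. The log2 difference between a group's 2 libraries ran with gene length, with a Spearman rho over 9573 genes of 0.05 in Malt1_PD, -0.53 in Malt1_WT and -0.67 in Vector. Genes are not replicates, so no p is given. Of the epithelial markers with a row, Krt8 stood at 108 to 124 CPM and Epcam at 6.16 to 8.97 CPM, while Krt14, Krt18, Krt19, Cdh1 and Cldn4 had 0 to 23 counts in a library. Of the fibroblast markers, Col3a1 stood at 445 to 456 CPM, Pdgfra at 123 to 147 CPM and Pdgfrb at 85.1 to 138 CPM, while Dcn stood at 6.05 to 12.5 CPM and Lum had 0 to 5 counts. Of 12 listed T cell genes, 9 had a row of counts, with a sum of 23 to 46 counts in a library. Lck supplied 18 to 35 of these, and Cd8a had 1 count over all 6 libraries. Counts do not separate a change in the share of a cell type from a change in RNA per cell.

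C3 (ENSMUSG00000024164.15, chromosome 17, 57203970 to 57228136, minus strand, GRCm38) was the most abundant of the 8 genes and stood at a fitted 1.57 times the Vector level in the 4 libraries with added Malt1. It stood at 435 and 415 CPM in the pair from Malt1_PD and 379 and 437 CPM in that from Malt1_WT, against 224 and 308 CPM in that from Vector. The group means were 425 ± 13.9 CPM in Malt1_PD, 408 ± 41.0 CPM in Malt1_WT and 266 ± 59.2 CPM in Vector (SD, n = 2 each). All 4 libraries with added Malt1 lay above both Vector libraries, the lowest of them 1.23 times the higher Vector library. Of the 14675 genes that passed edgeR's low-count filter and were tested, 9.74% showed that same order, so the order alone is common in these data. The Vector libraries were the pair furthest apart, replicate 2 being 1.37 times replicate 1, beside 1.05-fold within Malt1_PD (replicate 1 over replicate 2) and 1.15-fold within Malt1_WT (replicate 2 over replicate 1).

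The fitted log2 fold change of C3 was 0.68 ± 0.15 (SE) for Malt1_PD against Vector, with a 95% interval of 0.34 to 1.01, and 0.62 ± 0.14 for Malt1_WT against Vector, with an interval of 0.28 to 0.95. With edgeR's quasi-likelihood test and Benjamini-Hochberg adjustment over all genes, the adjusted p was 0.260 for Malt1_PD and 0.358 for Malt1_WT, so C3 was not called in either comparison. With both Malt1 forms together against Vector the log2 fold change was 0.65 ± 0.13 and the edgeR adjusted p 0.154. A log2 fold change at least as high as that of C3 was fitted for 3.64% of the genes tested in Malt1_PD against Vector and for 3.55% in Malt1_WT against Vector. The comparisons with Vector share the same pair of Vector libraries.

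**Figure D1:**
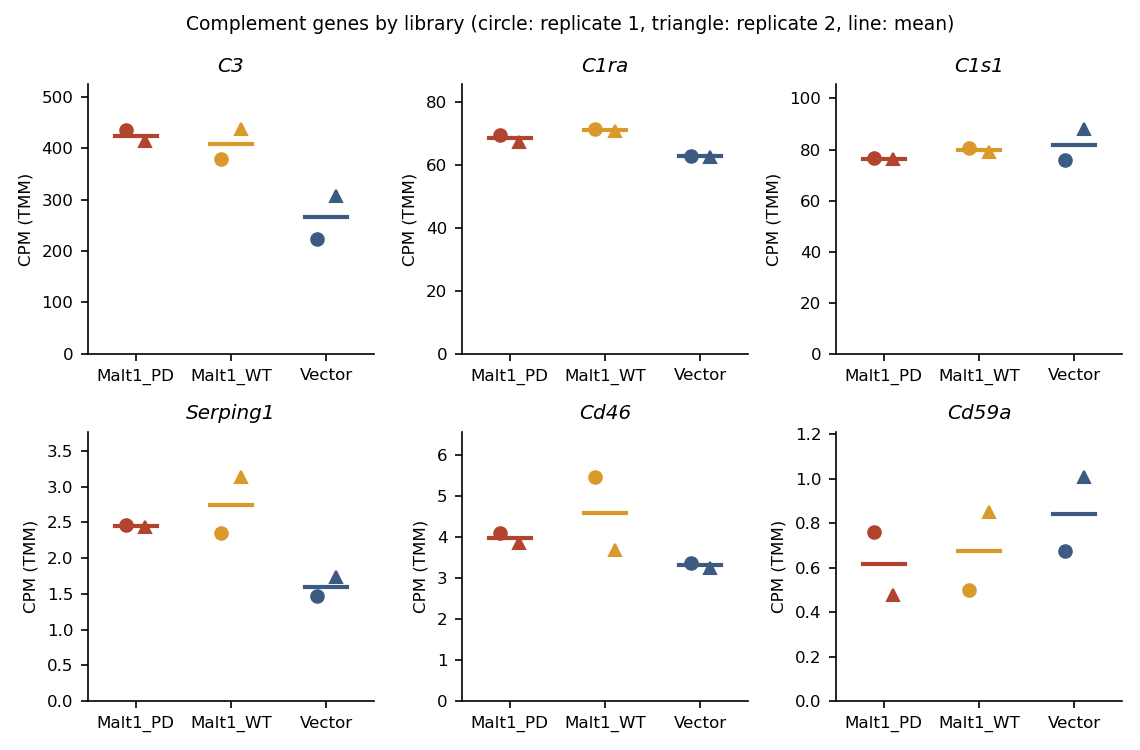
CPM (TMM-scaled counts, each axis from 0) of the 6 members that passed the low-count filter, in Malt1_PD, Malt1_WT and Vector. Circles are replicate 1, triangles replicate 2 and lines the mean of the 2 libraries; C3 lay at 379 to 437 CPM in the libraries with added Malt1 and at 224 and 308 CPM in Vector.

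Whether C3 passed the threshold depended on the fit and on which Vector library was in it. Without Vector replicate 1 the log2 fold change was 0.47 ± 0.09 in Malt1_PD (edgeR adjusted p = 0.0420) and 0.41 ± 0.09 in Malt1_WT (edgeR adjusted p = 0.0746), in fits that called 0.307% and 0.124% of the genes tested as higher in these forms. Without Vector replicate 2 it was 0.93 ± 0.10 in Malt1_PD (edgeR adjusted p = 0.000577) and 0.87 ± 0.10 in Malt1_WT (edgeR adjusted p = 0.000950), where 4.23% and 3.05% of genes were called higher. These fits set 1 Vector library against the others, assume that it varies like the other groups, and drop the spread of the Vector pair. At the 5143 nt of C3, the gene length trend of a library lay between -0.02 and 0.02 log2 units. With the trend removed C3 stood at 435 and 415 CPM in Malt1_PD and 381 and 433 CPM in Malt1_WT, against 227 and 303 CPM in Vector, and the log2 fold change was 0.68 ± 0.12 in Malt1_PD (edgeR adjusted p = 0.0317) and 0.62 ± 0.12 in Malt1_WT (edgeR adjusted p = 0.0530). That fit called 0.239% of genes higher in Malt1_PD and 0.184% in Malt1_WT. DESeq2's Wald test called C3 in Malt1_PD (0.68 ± 0.15, adjusted p = 0.00585) and in Malt1_WT (0.62 ± 0.15, adjusted p = 0.0299), and called 0.114% and 0.0857% of its genes higher. Over 13 alternative fits of each comparison C3 was past the threshold in 6 in Malt1_PD and in 4 in Malt1_WT. In each form 1 of these, without Vector replicate 1 and Malt1_WT replicate 1, was added after seeing the data. Its spread comes from the Malt1_PD pair alone. In alternatives that kept both libraries of the compared groups, the adjusted p (edgeR or DESeq2) ran between 7.81e-10 and 0.452 in Malt1_PD. In Malt1_WT it ran between 8.33e-08 and 0.999. The lowest values came from edgeR without the low-count filter. The log2 fold change was above 0 in all 13 for both.

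**Figure D2:**
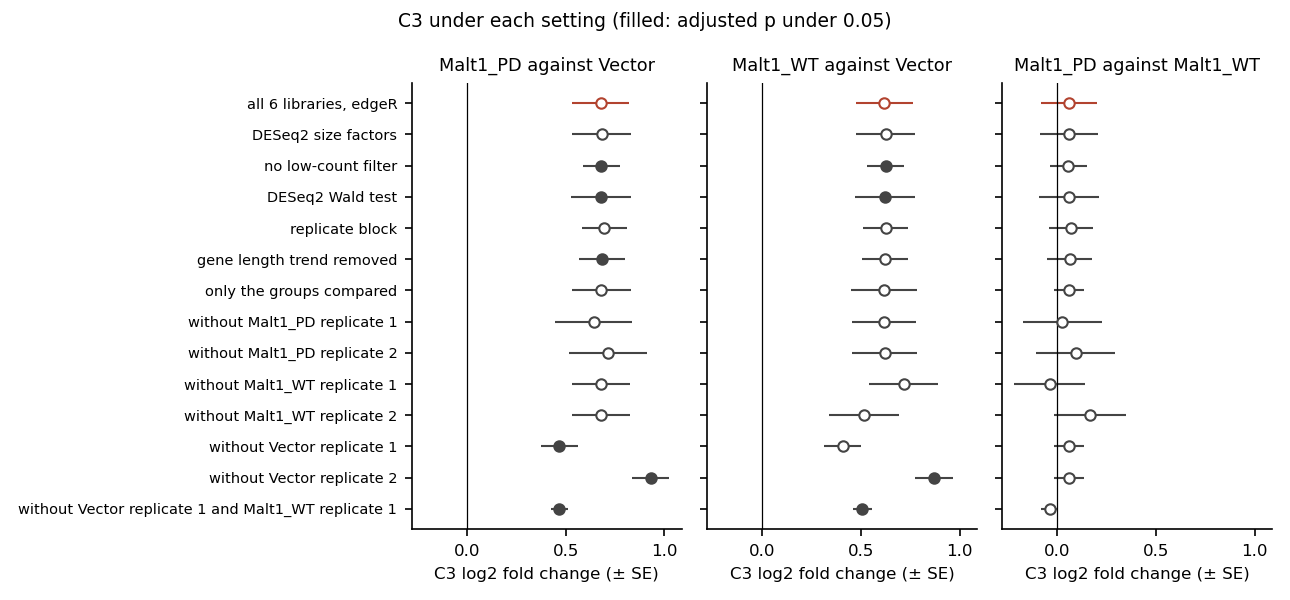
Log2 fold change of C3 (± SE), first group over second, in edgeR with all 6 libraries (top) and in the 13 alternatives, for 3 comparisons. Filled points have an adjusted p under 0.05; against Vector all values lie between 0.41 and 0.93, and between the Malt1 forms they lie between -0.04 and 0.17.

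Myeloid cells are another usual source of complement. Genes listed as their markers stood at a low level, and the counts do not tell which cells these transcripts came from. The 7 listed myeloid genes with a row of counts summed to 15.4 and 15.6 CPM in Malt1_PD. In Malt1_WT the sum was 16.4 and 18.4 CPM, and in Vector 22.6 and 19.8 CPM. Most of that sum came from Cd14, Cd68 and Lyz2, while Adgre1 had 0 to 2 counts and Csf1r 2 to 9 counts in a library. C1qb, a chain of C1q made mainly by macrophages, had 0 to 3 counts, and C1qa and C1qc had no row of counts. The 5 fibroblast genes with a row summed to 702 and 702 CPM in Malt1_PD and 696 and 746 CPM in Malt1_WT, against 663 and 721 CPM in Vector, nearly all of it Col3a1, Pdgfra and Pdgfrb. Dcn stood lower with added Malt1, at 6.90 and 6.66 CPM in Malt1_PD and 6.05 and 6.13 CPM in Malt1_WT, against 9.85 and 12.5 CPM in Vector. Lum had 0 and 2 counts in Malt1_PD and 0 and 1 counts in Malt1_WT, against 5 and 4 counts in Vector, too few to compare. No fold change or p is given for Dcn or Lum. The opposite order, every library with added Malt1 above both Vector libraries, held in 9.74% of the genes tested, so an order alone says little. The part of either cell type in the C3 levels was not tested.

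C1ra and C1s1 encode the proteases C1r and C1s of the C1 complex, and both were well expressed. C1ra (ENSMUSG00000055172.10, chromosome 6, 124512405 to 124523443, plus strand) stood at 69.5 and 67.3 CPM in Malt1_PD and 71.2 and 70.7 CPM in Malt1_WT, against 62.8 and 62.4 CPM in Vector. Its 4 libraries with added Malt1 also lay above both Vector libraries, but by far less than for C3. The log2 fold change was 0.13 ± 0.08 in Malt1_PD against Vector, with a 95% interval of -0.06 to 0.31 (edgeR adjusted p = 0.712), and 0.18 ± 0.08 in Malt1_WT, with an interval of -0.01 to 0.37 (edgeR adjusted p = 0.710). C1ra was past the threshold in 0 of the 13 alternatives of each comparison.

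C1s1 (ENSMUSG00000038521.17, chromosome 6, 124530345 to 124542359, minus strand) stood at 76.5 and 76.2 CPM in Malt1_PD and 80.5 and 78.9 CPM in Malt1_WT, against 75.9 and 87.9 CPM in Vector. The Vector pair spanned all 4 other libraries. The log2 fold change was -0.10 ± 0.09 in Malt1_PD against Vector, with a 95% interval of -0.32 to 0.12 (edgeR adjusted p = 0.798), and -0.04 ± 0.09 in Malt1_WT, with an interval of -0.26 to 0.18 (edgeR adjusted p = 0.962). Of the 13 alternatives, only the fit without Vector replicate 1 and Malt1_WT replicate 1 called it in Malt1_PD, at -0.20 ± 0.06 (edgeR adjusted p = 0.00898, within a range of 0.00898 to 0.9997 over the 13 alternatives; 7.44% of genes were called lower in that fit), and without Vector replicate 2 the value was 0.01. Per length, C1s1 was 1.05 and 1.08 times C1ra in Malt1_PD, 1.08 and 1.06 times in Malt1_WT, and 1.15 and 1.34 times in Vector. C1rb and C1s2, close copies of these genes, had 0 to 5 and 39 to 88 counts in a library, and how reads that match both copies were counted is not given in the sources used here. C1s1 also overlaps Gm16567 on the other strand, and the strand setting of the counting is not given in the sources used here.

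On the scale of length-corrected levels (RPKM, CPM divided by the gene length in kilobases), C3 led the 8 genes in every group. It averaged 82.6 ± 2.71 RPKM in Malt1_PD, 79.3 ± 7.96 RPKM in Malt1_WT and 51.7 ± 11.5 RPKM in Vector (SD, n = 2 each). C3 ranked 545th in Malt1_PD, 575th in Malt1_WT and 991st in Vector among the 14675 genes tested. C1s1 followed with means of 24.4, 25.5 and 26.2 RPKM, in Malt1_PD, Malt1_WT and Vector. C1ra stood at 23.3 and 22.6 RPKM in Malt1_PD and 23.9 and 23.7 RPKM in Malt1_WT, against 21.1 and 20.9 RPKM in Vector. The levels of C1s1 and C1ra were close to each other in each group, whereas C3 was 3.38 times C1s1 in Malt1_PD, 3.11 times in Malt1_WT and 1.97 times in Vector. The scarce members came far below. Serping1 averaged 1.05, 1.18 and 0.688 RPKM, Cd46 averaged 0.524, 0.603 and 0.436 RPKM, and Cd59a averaged 0.341, 0.372 and 0.465 RPKM, in Malt1_PD, Malt1_WT and Vector.

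**Figure D3:**
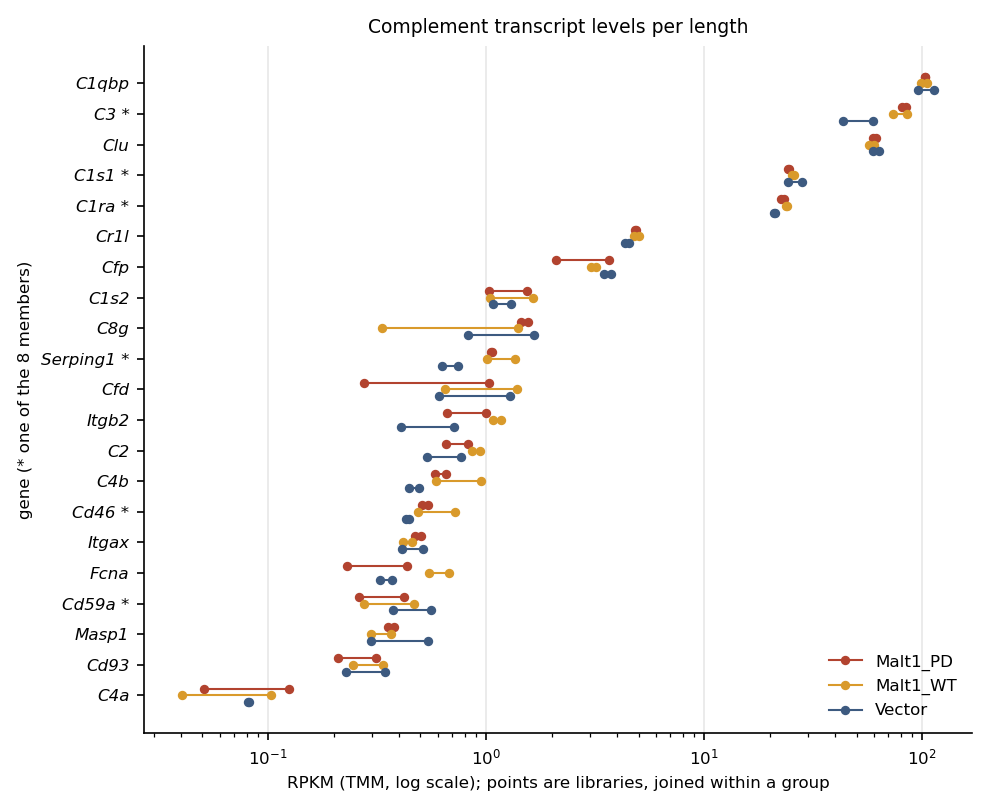
RPKM per library (log axis; the 2 libraries of a group joined by a line) of the 21 complement genes that passed the filter, members starred, with Malt1_PD, Malt1_WT and Vector drawn from top to bottom within each gene. C3 stands at 73.7 to 84.9 RPKM in the libraries with added Malt1, above Clu, and at 43.5 and 59.8 RPKM in Vector, while Serping1, Cd46 and Cd59a lie between 0.263 and 1.35 RPKM.

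Serping1, which encodes the C1 inhibitor that inactivates C1r and C1s, was counted at low depth. The gene (ENSMUSG00000023224.12, chromosome 2, 84765387 to 84775444, minus strand) had 39 and 41 counts in Malt1_PD and 33 and 63 counts in Malt1_WT, against 26 and 31 counts in Vector. In CPM these were 2.47 and 2.44 in Malt1_PD, 2.35 and 3.14 in Malt1_WT, and 1.46 and 1.74 in Vector, so the 4 libraries with added Malt1 again lay above both Vector libraries. The log2 fold change was 0.61 ± 0.29 in Malt1_PD against Vector, with a 95% interval of -0.06 to 1.28 (edgeR adjusted p = 0.612), and 0.79 ± 0.29 in Malt1_WT, with an interval of 0.13 to 1.45 (edgeR adjusted p = 0.625). The size was near that of C3, but the exact 95% Poisson interval of the lowest library with added Malt1, Malt1_WT replicate 1 (1.62 to 3.30 CPM), overlapped that of Vector replicate 2 (1.18 to 2.47 CPM). Such intervals cover counting error only. Serping1 was past the threshold in 0 of the 13 alternatives of each comparison.

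Of the membrane regulators among the 8 genes, Cd46 and Cd59a were counted at a low level and Cd55 had almost no counts. Cd46 (ENSMUSG00000016493.13, chromosome 1, 195036826 to 195092249, minus strand), a cofactor for the inactivation of C3b whose expression in mice is known mainly from testis, stood at 4.11 and 3.86 CPM in Malt1_PD and 5.48 and 3.69 CPM in Malt1_WT, against 3.38 and 3.25 CPM in Vector. Its log2 fold change was 0.27 ± 0.25 in Malt1_PD against Vector (edgeR adjusted p = 0.799) and 0.45 ± 0.25 in Malt1_WT (edgeR adjusted p = 0.767). The Malt1_WT value was 0.73 without Malt1_WT replicate 2 and 0.16 without Malt1_WT replicate 1. Cd46 overlaps 5 annotated genes, 4 of them on the other strand, so part of its counts could belong to those.

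Cd59a (ENSMUSG00000032679.12, chromosome 2, 104095801 to 104115354, plus strand), the broadly expressed mouse CD59 gene, had 12 and 8 counts in Malt1_PD and 7 and 17 counts in Malt1_WT, against 12 and 18 counts in Vector, which is 0.475 to 1.01 CPM. The groups overlapped. Its log2 fold change was -0.45 ± 0.51 in Malt1_PD against Vector, with a 95% interval of -1.62 to 0.72. In Malt1_WT it was -0.28 ± 0.49, with an interval of -1.42 to 0.86. At this depth and with 2 libraries per group, differences within these intervals were not excluded.

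Cd55 (ENSMUSG00000026399.12, chromosome 1, 130439027 to 130462744, minus strand), the gene of decay-accelerating factor, had 0 counts in both Malt1_PD libraries, both Malt1_WT libraries and Vector replicate 1, and 1 count in Vector replicate 2. Cfb (ENSMUSG00000090231.10, chromosome 17, 34856374 to 34862518, minus strand), the gene of factor B, had 0 and 0 counts in Malt1_PD and 1 and 1 counts in Malt1_WT, against 4 and 0 counts in Vector. A count of 0 allows up to 3 counts, which is 0.150 to 0.214 CPM in these libraries. Both genes were at or about that floor in every group and failed the low-count filter, so no fold change is given. Cfb overlaps Gm20547 and Mir6972 on its own strand, neither of which had a row of counts. Cd55 overlaps Gm16083 on the other strand, which had no row either. How reads that match overlapping genes were counted, and with which strand setting, is not given in the sources used here. The low counts therefore need not mean little Cfb or Cd55 transcript.

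Of the 8 genes, 6 passed the filter and 0 of them were called by edgeR in Malt1_PD against Vector, in Malt1_WT against Vector or in Malt1_PD against Malt1_WT, where 0.00681% of the 14675 genes tested were called in each, nor with both forms together against Vector, where 0.0273% were. At an unadjusted p under 0.05 edgeR had 1 of the 6 higher in Malt1_PD than in Vector (C3) and 2 higher in Malt1_WT than in Vector (C3 and Serping1), beside 3.73% and 3.3% of all genes tested. Between the Malt1 forms it had 0 in either direction, beside 1.92% of all genes tested. DESeq2 called 1 member, C3, higher in each form than in Vector, beside 0.114% of its genes in Malt1_PD and 0.0857% in Malt1_WT. Cd59a had no DESeq2 adjusted p in either comparison. Between the forms DESeq2 called 0 members and 0.00356% of genes. The median log2 fold change of the 6 was 0.20 in Malt1_PD against Vector and 0.32 in Malt1_WT against Vector, beside -0.001 for all genes tested in each. In both, 4 lay above 0 (C3, C1ra, Serping1 and Cd46) and 2 below (C1s1 and Cd59a). For these 4 genes all libraries of the Malt1 form lay above both Vector libraries, an order seen in 18.4% of the genes tested for Malt1_PD and in 15.5% for Malt1_WT. The 8 genes were chosen with fold changes between these groups in view. The medians, signs and orders therefore describe the chosen genes and are no evidence of a shared shift.

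**Figure D4:**
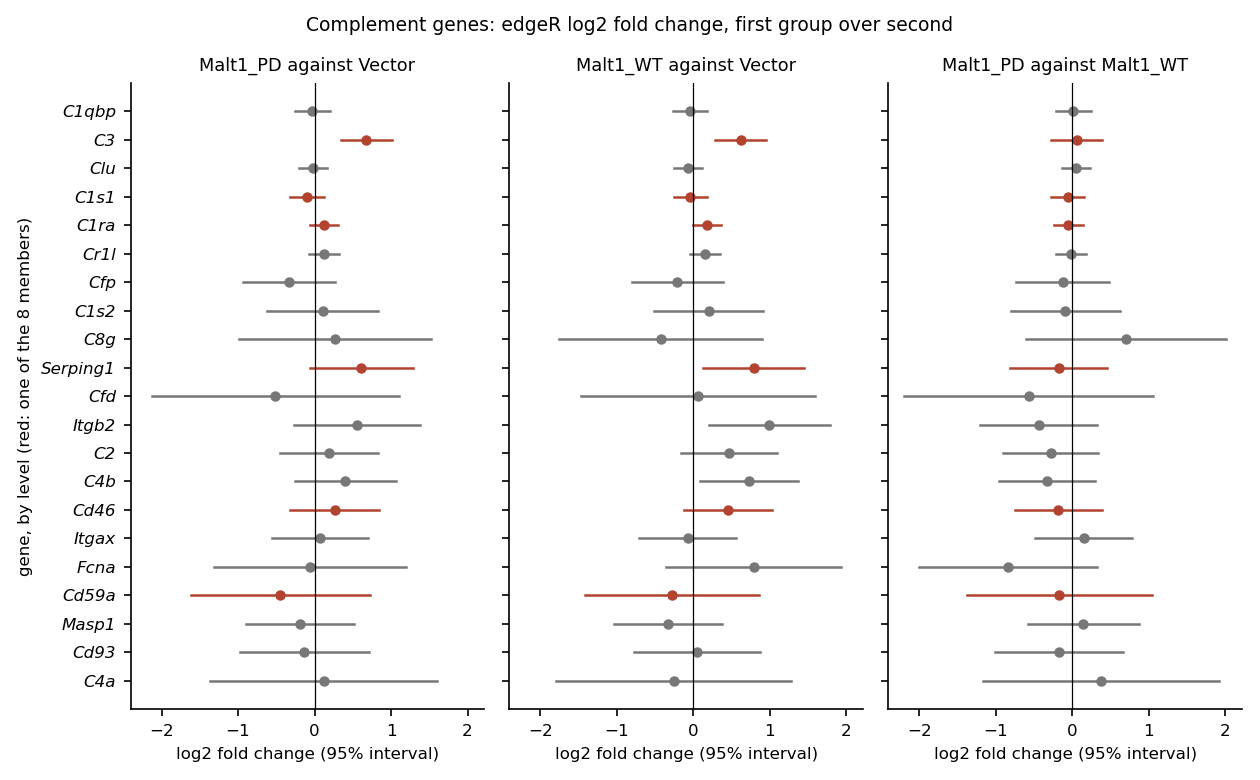
EdgeR log2 fold changes with 95% intervals, first group over second, of the 21 complement genes that passed the filter, ordered from the highest level per length at the top, for 3 comparisons; red marks the members. C3 lies at 0.68 in Malt1_PD and 0.62 in Malt1_WT against Vector with intervals above 0, and at 0.06 between the Malt1 forms with an interval across 0.

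Between the Malt1 forms no member passed the test. C3 averaged 425 CPM in Malt1_PD and 408 CPM in Malt1_WT, and the libraries overlapped. The log2 fold change of Malt1_PD against Malt1_WT was 0.06 ± 0.14, with a 95% interval of -0.27 to 0.39. The fitted C3 values against Vector, 0.68 and 0.62, lay above this interval. The lower ends of their own 95% intervals, 0.34 and 0.28, lay inside it. Between the forms the log2 fold change of C1ra was -0.05 ± 0.08 (-0.24 to 0.13), for C1s1 -0.06 ± 0.10 (-0.28 to 0.16), for Serping1 -0.18 ± 0.28 (-0.81 to 0.46), for Cd46 -0.18 ± 0.25 (-0.75 to 0.38) and for Cd59a -0.17 ± 0.52 (-1.38 to 1.04). C1ra and C1s1 lay lower in both Malt1_PD libraries than in both Malt1_WT libraries, an order that 16.1% of the genes tested shared. The intervals were narrow for C1ra and C1s1 and wide for the 3 scarce genes. Cd274, which encodes PD-L1, stood at 4.87 and 3.57 CPM in Malt1_PD against 469 and 545 CPM in Malt1_WT. It stood at 4.22 and 4.37 CPM in Vector. EdgeR called 1 of the 14675 genes tested between the forms (0.00681%). A difference as large as that of Cd274 does not show whether smaller ones, as in the complement genes, could be detected.

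A further 49 complement genes were looked for, of which 38 had a row of counts and 15 passed the filter. EdgeR and DESeq2 each called 0 of the 15 in these comparisons, beside 0.00681% of all genes tested with edgeR in each comparison of 2 groups. DESeq2 gave an adjusted p to 12285 genes in Malt1_PD against Vector and to 12829 in Malt1_WT against Vector. Scarce genes among the 15 may have had none there. At an unadjusted edgeR p under 0.05 there were 0 in Malt1_PD against Vector, 2 in Malt1_WT against Vector (C4b and Itgb2) and 0 between the forms, beside 8.61%, 7.09% and 1.92% of all genes tested, in either direction. Their median log2 fold change was 0.07 in Malt1_PD against Vector and 0.04 in Malt1_WT against Vector, with 8 above 0 and 7 below in each.

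Among regulators outside the 8 genes, Clu and Cr1l were the abundant ones. Clu, which encodes clusterin, an inhibitor of the terminal complex, stood at 205 and 211 CPM in Malt1_PD and 206 and 196 CPM in Malt1_WT, against 218 and 205 CPM in Vector, with overlapping groups and log2 fold changes of -0.02 ± 0.08 in Malt1_PD and -0.07 ± 0.08 in Malt1_WT against Vector. Cr1l, the gene of Crry, stood at 49.9 and 50.2 CPM in Malt1_PD and 51.9 and 49.6 CPM in Malt1_WT, against 46.6 and 45.0 CPM in Vector. Its log2 fold change was 0.13 ± 0.08 in Malt1_PD (edgeR adjusted p = 0.722) and 0.15 ± 0.08 in Malt1_WT (edgeR adjusted p = 0.775). Per length Cr1l averaged 4.84 RPKM in Malt1_PD, 4.90 RPKM in Malt1_WT and 4.43 RPKM in Vector, above Cd46 and Cd59a in every library. By these counts Crry transcript was the most abundant of the membrane regulators examined. Cd59b and Susd4 did not pass the filter, and Cd55b and Csmd1 had no row.

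Of the recognition and initiating proteases, 6 further genes passed the filter. C4b, whose product joins C2 in the classical C3-cleaving enzyme, stood at 3.73 and 3.33 CPM in Malt1_PD and 3.35 and 5.39 CPM in Malt1_WT, against 2.53 and 2.80 CPM in Vector, with log2 fold changes of 0.40 ± 0.29 in Malt1_PD (edgeR adjusted p = 0.748) and 0.73 ± 0.28 in Malt1_WT (edgeR adjusted p = 0.648). C4b and C4a are near-identical copies whose reads could be split between them. C2 averaged 2.87 CPM in Malt1_PD, 3.49 CPM in Malt1_WT and 2.53 CPM in Vector, C1s2 3.42, 3.58 and 3.17 CPM, and Masp1, a protease of the lectin pathway, 3.62, 3.25 and 4.12 CPM, in the same order of groups. Fcna, the gene of the lectin ficolin A, had 5 to 15 counts and the log2 fold change furthest below 0 between the forms among the 15, -0.84 ± 0.51 in Malt1_PD against Malt1_WT.

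Apart from C3, the genes of the alternative and terminal pathways had low counts. Cfp, which encodes properdin, the stabiliser of the alternative C3-cleaving enzyme, stood at 6.33 and 3.62 CPM in Malt1_PD and 5.27 and 5.53 CPM in Malt1_WT, against 6.47 and 6.05 CPM in Vector, with log2 fold changes of -0.34 ± 0.26 in Malt1_PD and -0.21 ± 0.26 in Malt1_WT against Vector. Cfd, the gene of factor D, had 4 to 21 counts. Hc, which encodes C5, had 5 to 15 counts and did not pass the filter. Of the terminal pathway genes only C8g passed, with 34 and 39 counts in Malt1_PD and 7 and 42 counts in Malt1_WT, against 22 and 44 counts in Vector. Its log2 fold change was 0.70 ± 0.57 in Malt1_PD against Malt1_WT.

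Receptor genes followed no common direction. C1qbp, which encodes a mitochondrial protein that also binds C1q, was the most abundant at 291 and 290 CPM in Malt1_PD and 297 and 278 CPM in Malt1_WT, against 321 and 270 CPM in Vector. Itgb2, the beta chain of complement receptor 3 and other leukocyte integrins, stood at 3.04 and 2.02 CPM in Malt1_PD and 3.56 and 3.29 CPM in Malt1_WT, against 1.24 and 2.19 CPM in Vector. Its log2 fold change was 0.56 ± 0.35 in Malt1_PD (edgeR adjusted p = 0.717) and 0.99 ± 0.34 in Malt1_WT (edgeR adjusted p = 0.599) against Vector, and -0.44 ± 0.33 in Malt1_PD against Malt1_WT. The anaphylatoxin receptor genes C3ar1, C5ar1 and C5ar2 had 0 to 2, 2 to 7 and 0 to 2 counts in a library. By these counts their transcripts were at trace level, and receptor protein was not measured.

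The genes whose log2 CPM followed C3 most closely over the 6 libraries, among 9181 named genes averaging at least 3 on that scale, were Rrp12, Mrs2, Gpatch1, Upf1 and Bcl9l, with Pearson's r between 0.993 and 0.996. None of these 5 is a complement gene, and 136 of the 9181 genes had an r of at least 0.95. Bcl9l stood at 140 and 134 CPM in Malt1_PD and 126 and 145 CPM in Malt1_WT, against 91.0 and 115 CPM in Vector. Rrp12, the highest in r, stood at 75.2 and 75.2 CPM in Malt1_PD and 73.4 and 75.4 CPM in Malt1_WT, against 61.0 and 67.6 CPM in Vector. All 5 had lower values in Vector replicate 1 than in replicate 2, as C3 did, and log2 fold changes of 0.19 to 0.41 against Vector, below those of C3. They are given for likeness of pattern only.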

How the data were processed

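Total RNA of 6 samples, 2 per group, was made into directional libraries and sequenced from both ends, per the labels' protocols. Libraries held 14045390 to 19962014 counts. The authors deposited whole-number counts per gene, not normalised. The submitters' processing notes name STAR 2.7.3a, featureCounts 1.6.3, Trim Galore 0.6.0 and build GRCm38.p6. The strand setting is not given in the sources used here. The deposited table also holds 6 log2 RPKM columns, which were not used. Gene lengths were taken from the table as deposited, 25 symbols turned into dates were restored from gene identifiers, and coordinates come from GENCODE M21 (GRCm38). Counts were fitted in edgeR 4.0.16 (R 4.3.3) with TMM factors, filterByExpr by group (14675 genes kept) and glmQLFit and glmQLFTest on all 6 libraries without covariates, adjusted by Benjamini-Hochberg over all genes tested and called under 0.05. SE and 95% intervals were derived from the quasi-likelihood F. The fit was tested on simulated data. A length trend was a lowess of each library's log2 CPM deviation on log2 gene length, over genes averaging at least 3 on the log2 CPM scale. The main p-values and intervals rest on the spread between libraries, with 3 residual degrees of freedom per gene (common coefficient of variation 10.1%). EdgeR moderates each gene's spread with that of the other genes, and this adds to the degrees of freedom used.

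The 8 genes, the complement list and the motifs were chosen with earlier results of these data known. All 8 genes were named in every comparison, of the other complement genes the 8 with the highest mean CPM and the 3 with the smallest p in each comparison, and the 5 genes most like C3 by Pearson's r among named genes. A few other complement genes are named to account for a role. Each result was recomputed with every library left out in turn, with the length trend removed, with the replicate number blocked, in fits of the compared pair of groups alone, without the filter, with size factors from DESeq2 1.42.0, and by its Wald test. A fit without Vector replicate 1 and Malt1_WT replicate 1 was added after seeing the data.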

Additional observations from a re-analysis of the deposited data

How the results depend on the processing

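The counts of called genes depended on the setting, and C3 was the member that moved across the threshold most often. Against 1 gene called in Malt1_PD against Vector, 1 in Malt1_WT against Vector, 1 in Malt1_PD against Malt1_WT and 4 for both forms against Vector, fits without a low-count filter called 188, 113, 12 and 255, and DESeq2 34, 25, 1 and 70. With the length trend removed they were 95, 56, 1 and 207. Dropping both Vector replicate 1 and Malt1_WT replicate 1 leaves only the Malt1_PD pair to give the spread, and the counts were then 2080, 936, 358 and 1754. Leaving out each library in turn gave 0 to 928, 1 to 599, 1 to 1, and 1 to 1202, the highest against Vector each time without Vector replicate 2. Without Vector replicate 1 the counts against Vector were 111, 50 and 201, and without either Malt1_PD library they were 0, 1 and 1. DESeq2 size factors, and fits of only the groups compared where there are 2, left these counts as they were.

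With the replicate number as a block the counts were 9, 6, 1 and 52, and C3 was called for both forms against Vector (0.66 ± 0.10, adjusted p = 0.0387). The replicate 1 minus replicate 2 differences over genes correlated at 0.68 between Malt1_WT and Vector, 0.03 between Malt1_PD and Malt1_WT and -0.01 between Malt1_PD and Vector, so same-numbered libraries of Malt1_WT and Vector deviated together and those of Malt1_PD did not deviate with them. Since this did not hold for every pair of groups and the labels tie the numbers to nothing, the numbers were not taken to pair the libraries.

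Directions turned for members near 0. With each library left out in turn, C1s1 ran between -0.20 and 0.015 (Malt1_PD against Vector), between -0.14 and 0.075 (Malt1_WT against Vector) and between -0.17 and 0.045 (both forms against Vector), and Cd59a between -0.75 and 0.038 (Malt1_WT against Vector). For Malt1_PD against Malt1_WT the ranges were -0.039 to 0.17 for C3, -0.36 to 0.062 for Serping1, -0.53 to 0.30 for Cd59a and -0.46 to 0.11 for Cd46. Without Vector replicate 1 and Malt1_WT replicate 1 together, C3 stood at -0.039 and Cd46 at 0.11 between the forms, and C1s1 at -0.20 (Malt1_PD), -0.15 (Malt1_WT) and -0.18 (both forms) against Vector. Depth limits Cd59a, Cfb and Cd55 most. The causes were not tested.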
